A study of Mus musculus with 14 samples.

Results

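Liver and pancreas are both glands that grow out of the embryonic gut, and their miRNA contents were set against each other here in small RNA libraries of C57BL/6J mice, an inbred laboratory strain. The data were 2 of the 14 tissue libraries of a mouse miRNA survey, with 1 library of pooled total RNA for liver and 1 for pancreas. The animals carried no treatment or transgene in the labels, which state neither age nor sex. The labels speak of 5 harvested mice and of a pool of 10, and which number holds was not settled. The table listed 1046 mature miRNA names, and 454 of them had at least 1 read in liver or pancreas. A name was called where its RPM (reads per 1000000 miRNA reads of the library) differed at least 4-fold between the libraries and reached 100 RPM in the higher one. Of 79 names that reached 100 RPM in liver or pancreas, 50 were called, 36 of them higher in liver (45.6% of the 79) and 14 higher in pancreas (17.7%). The other 29 were within 4-fold. Counts within a family are read below against those shares.

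The liver library held 6344776 miRNA reads and the pancreas library 622132, the shallowest of the 14, which makes liver 10.2 times as deep. At 100 RPM the liver library has 634 reads and the pancreas library 62, so that counting error alone gives 95% Poisson intervals of 92.3 to 108 RPM in liver and 76.4 to 128 RPM in pancreas. Where a name had no read, up to 3 reads could have been missed, equal to 0.473 RPM in liver and 4.82 RPM in pancreas. With 1 library per tissue there is no replicate check: every fold below compares these 2 libraries, its interval (exact conditional binomial, 95%) covers counting error only, and no test between tissues was run. In bulk RNA, fewer cells of a type and less of a miRNA per cell cannot be told apart.

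A miRNA is cut from a hairpin as a strand of about the length printed below, loads into an Argonaute protein, and pairs with target mRNAs chiefly through its seed, bases 2 to 8. Each hairpin has a 5′ and a 3′ arm, and in the naming used by the table a star marks the arm once taken as the minor product. Liver consists mostly of hepatocytes, for which miR-122 is the defining miRNA, while the exocrine pancreas consists mostly of acinar cells, usually marked by miR-217 and by miR-216a and miR-216b, and its islets are marked by miR-375.

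The labels held against those markers. miR-122 had 437407 RPM in liver (2775249 reads) and 9.64 RPM in pancreas (6 reads), a fold of 45354 (20837 to 123587). miR-217 had 1.89 RPM in liver (12 reads) and 2967 RPM in pancreas (1846 reads), and was 1569-fold higher in pancreas (896 to 3042). Each marker was at its highest of all 14 libraries in its own gland, with kidney next for miR-122 at 404 RPM and cerebellum next for miR-217 at 76.7 RPM.

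The mature sequences that carry the comparison are shown first. They are RefSeq sequences (GRCm38.p6), written 5′ to 3′ with the seed in capitals, and the arm for each table name was assigned from current naming; RefSeq sequences were matched for 46 of the 50 called names. The first set holds miRNAs higher in pancreas, and shows the seed shared by miR-148a, miR-148b and miR-152 and the single seed base that separates miR-216a and miR-216b.
miR-217: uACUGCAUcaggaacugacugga
miR-216a: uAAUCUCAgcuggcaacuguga
miR-216b: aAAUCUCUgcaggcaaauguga
miR-148a: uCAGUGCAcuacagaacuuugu
miR-148b: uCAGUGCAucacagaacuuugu
miR-152: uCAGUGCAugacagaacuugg
miR-200c: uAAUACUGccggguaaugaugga
miR-200b: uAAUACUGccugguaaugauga
miR-141: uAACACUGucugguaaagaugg

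The second set holds miRNAs higher in liver, with miR-101a, which was not called, printed beside miR-101b because the near-identical names behaved differently, and both arms of miR-142 because the library that was higher changed with the arm.
miR-192: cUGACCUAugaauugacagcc
miR-215: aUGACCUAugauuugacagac
miR-194: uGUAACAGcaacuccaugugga
miR-21: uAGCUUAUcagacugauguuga
miR-101b: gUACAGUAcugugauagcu
miR-101a: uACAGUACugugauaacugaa
miR-126-3p: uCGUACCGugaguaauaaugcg
miR-142-3p: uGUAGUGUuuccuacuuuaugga
miR-142-5p: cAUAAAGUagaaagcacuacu

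In both glands a single miRNA dominated. miR-122 made up 43.7% of liver reads (95% Clopper-Pearson interval 43.7 to 43.8), and miR-148a made up 62.6% of pancreas reads (62.4 to 62.7). The next names in liver were miR-378 at 14.1%, let-7f at 6.71% and miR-143 at 6.14%, and in pancreas let-7f at 9.48%, let-7c at 5.87% and miR-378 at 5.42%. The 10 most abundant names held 90.4% of liver reads and 96.9% of pancreas reads. To cover 99% of the reads took 38 names in liver and 24 in pancreas, so the pancreas library was the more concentrated one. With miR-122 and miR-148a left out of both totals, miR-378 led liver with 25.8% and let-7f led pancreas with 25.3%, and 99% of reads took 49 names in liver and 40 in pancreas.

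**Figure D1:**
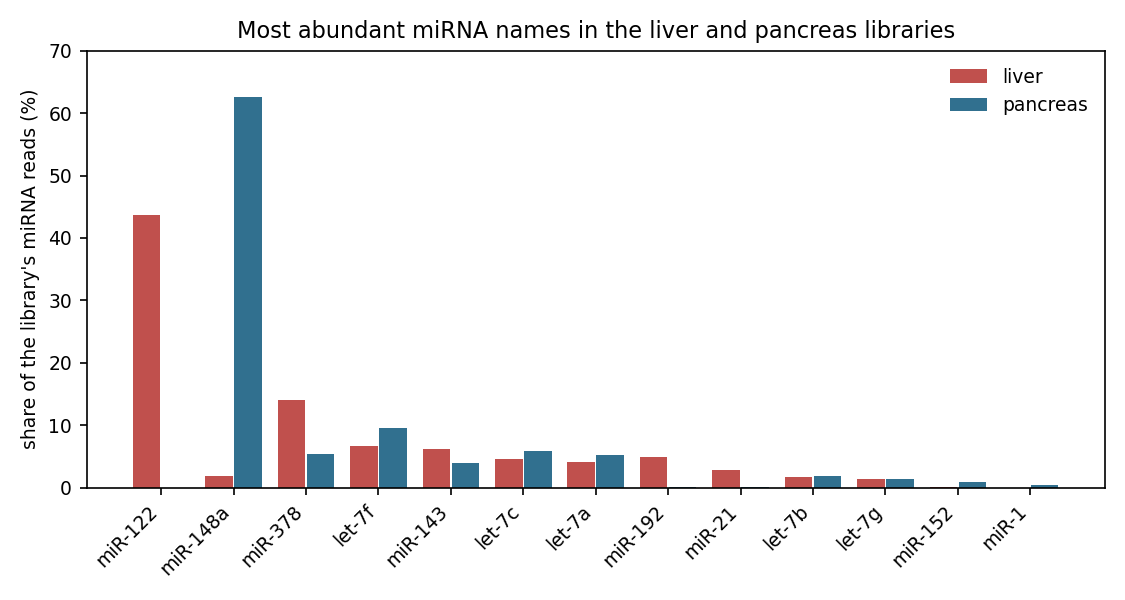
Share of library reads (percent) held by the most abundant names, with a bar for liver to the left of one for pancreas. miR-122 fills 43.7% of the liver library and miR-148a fills 62.6% of the pancreas library.

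The 36 names called higher in liver summed to 57.2% of liver reads and to 0.588% of pancreas reads. The 14 names called higher in pancreas summed to 1.88% of liver reads and to 64.4% of pancreas reads. Beyond 10-fold stood 24 names in liver and 10 in pancreas, beyond 20-fold 16 in liver and 8 in pancreas, and beyond 100-fold 2 in liver and 4 in pancreas. Most names leaned towards liver on this scale: the median log2 fold, liver over pancreas, was 1.46 over the 149 names with 10 RPM or more in either library and reads in both, so a list of names is read below against that median and not against 0. Of 163 names at 10 RPM or more in either library, 116 were higher in liver and 47 in pancreas. Levels of the 163 names in liver and pancreas had a Spearman rank correlation of 0.518 across names, which are not independent replicates.

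**Figure D2:**
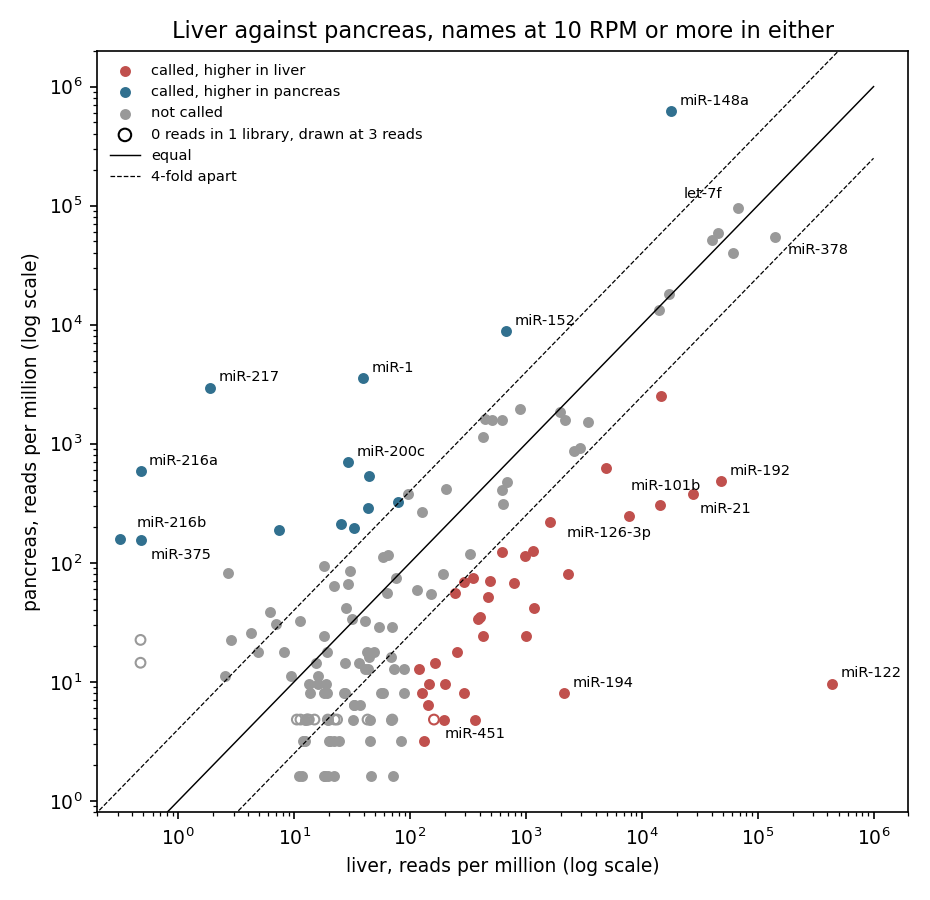
Each point is a name at 10 RPM or more in liver or pancreas, with liver RPM on the horizontal and pancreas RPM on the vertical log axis; lines mark equality and a 4-fold difference, and open points had 0 reads in 1 library. Called names higher in pancreas reach from miR-216b to miR-148a at 625591 RPM, and miR-122 lies alone at the far right.

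Acinar miRNAs came first among the names higher in pancreas. The miR-216 and miR-217 genes sit beside each other in the mouse genome, with miR-216a within 10 kb of miR-217, inside non-coding host genes. miR-216a had 0.473 RPM in liver (3 reads) and 585 RPM in pancreas (364 reads), a pancreas excess of 1237-fold (420.1 to 6028). miR-216b had 0.315 RPM in liver (2 reads) and 158 RPM in pancreas (98 reads), a pancreas excess of 499.7-fold (135 to 4184). For miR-216a and miR-216b liver was thus at or under its floor of 3 reads, while miR-217 lay above it with 12; the 6 names of the acinar list summed to 2.68 RPM in liver and 3737 RPM in pancreas. The star arms followed at a low level, with miR-216b* at 0 reads in liver and 9 in pancreas, and miR-216a* at 0 reads in liver and 5 in pancreas.

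miR-375, which restrains insulin secretion in islet beta cells, had 0.473 RPM in liver (3 reads) and 154 RPM in pancreas (96 reads), 326-fold higher in pancreas (108 to 1610.3). It was the single called name among the 7 of the islet list. miR-7a, another islet miRNA, had 151.6 RPM in liver and 54.7 RPM in pancreas and was not called; its direction turned under 1 of the 6 other scalings. The pancreas library ranked 4 of 14 for miR-375, and the uterus library had the highest level.

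The miR-148 and miR-152 family, whose 3 members share the seed CAGUGCA, had the largest mass of the comparison. miR-148a, which is known to repress the DNA methyltransferase Dnmt1, had 17834 RPM in liver and 625591 RPM in pancreas and was 35.1-fold higher in pancreas (34.8 to 35.3). miR-152, encoded inside Copz2, had 675 RPM in liver and 8783 RPM in pancreas and was 13.0-fold higher in pancreas (12.5 to 13.5). miR-148b, encoded inside Copz1, had 515 RPM in liver and 1588 RPM in pancreas, 3.08-fold higher in pancreas, which was under the limit; it passed at 4.49-fold once miR-122 and miR-148a were left out of the totals. All 3 members were therefore higher in pancreas, but by unequal folds within a family with 1 seed. Their star arms did not follow. miR-148a* was nearly level, with 31.8 RPM in liver and 33.8 RPM in pancreas. miR-148b* had 45.7 RPM in liver and 1.61 RPM in pancreas (1 read), and miR-152* had 3.15 RPM in liver and 1.61 RPM in pancreas (1 read). The mature strands of miR-148a and miR-152 differ at 3 of 21 compared positions, and those of miR-148a and miR-148b at 2 of 22, so reads could be split between names where the counting allowed mismatches; how the authors counted such reads is not given in the sources used here. miR-148a was also high in liver against the other tissues: liver ranked 2 of 14, after pancreas.

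Epithelial miRNAs of the miR-200 family, which repress Zeb1 and Zeb2 and mark epithelial cells, were higher in pancreas for 4 of the 5 names that reached 10 RPM. Of all 163 names at that level, 47 were higher in pancreas. miR-200c had 29.2 RPM in liver and 706 RPM in pancreas, 24.2-fold higher in pancreas (20.3 to 28.9). Its neighbour within 10 kb, miR-141, had 7.41 RPM in liver and 188 RPM in pancreas, 25.4-fold higher in pancreas. In the other cluster, miR-200b had 32.8 RPM in liver and 196 RPM in pancreas, 5.98-fold higher in pancreas. The cluster of miR-200c and miR-141 thus differed about equally in both members, and miR-200b by less. Pancreas was not high among all tissues for these names. It ranked 7 of 14 for each, below the medians of the other 12 libraries (947 RPM for miR-200c, 224 for miR-141, 249 for miR-200b). Liver ranked 11, 10 and 8 of 14 for miR-200c, miR-141 and miR-200b. miR-200a was 2.91-fold higher in pancreas and not called, with 22.1 RPM in liver and 64.3 RPM in pancreas, while miR-429 leaned the other way with 18.9 RPM in liver and 9.64 RPM in pancreas, on 6 pancreas reads, with an interval that included equality and a direction that turned under 2 of the 6 other scalings.

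Among the other pancreas names were miR-184, at 44.3 RPM in liver and 534 RPM in pancreas (12.05-fold higher in pancreas), and both arms of miR-802. miR-802 had 43.3 RPM in liver and 291 RPM in pancreas (6.71-fold), and miR-802* had 25.4 RPM in liver and 211 RPM in pancreas (8.30-fold), so both arms of this hairpin were called. miR-423-5p closed the list at 79.1 RPM in liver and 326 RPM in pancreas, 4.12-fold higher in pancreas (3.49 to 4.86), an interval that spans the 4-fold limit. The cluster of miR-182, miR-183 and miR-96, known from sensory cells and epithelia, was higher in pancreas in all 3 members, by 3.64-fold, 2.08-fold and 4.40-fold, but none was called: miR-182 had 444 RPM in liver and 1619 RPM in pancreas, and miR-96 stayed under 100 RPM in both.

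A muscle miRNA was also among the names higher in pancreas. miR-1, the main miRNA of heart and skeletal muscle, had 39.2 RPM in liver (249 reads) and 3543 RPM in pancreas (2204 reads), 90.3-fold higher in pancreas (79.1 to 103). Liver had the lowest miR-1 level of the 14 libraries, and pancreas ranked 4 of 14, after heart at 318375 RPM, oesophagus at 279486 RPM and stomach at 4178 RPM. Of 15 striated muscle names, 12 had 0 reads in liver and 8 had 0 reads in pancreas; the list summed to 59.9 RPM in liver and 3576 RPM in pancreas, nearly all of it miR-1 in pancreas. The muscle miRNA miR-133a had 0 reads in liver and 14 reads (22.5 RPM) in pancreas, and miR-206 had 20.5 RPM in liver and 3.21 RPM in pancreas. The part of muscle or of other tissue in the pancreas value of miR-1 was not tested.

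**Figure D3:**
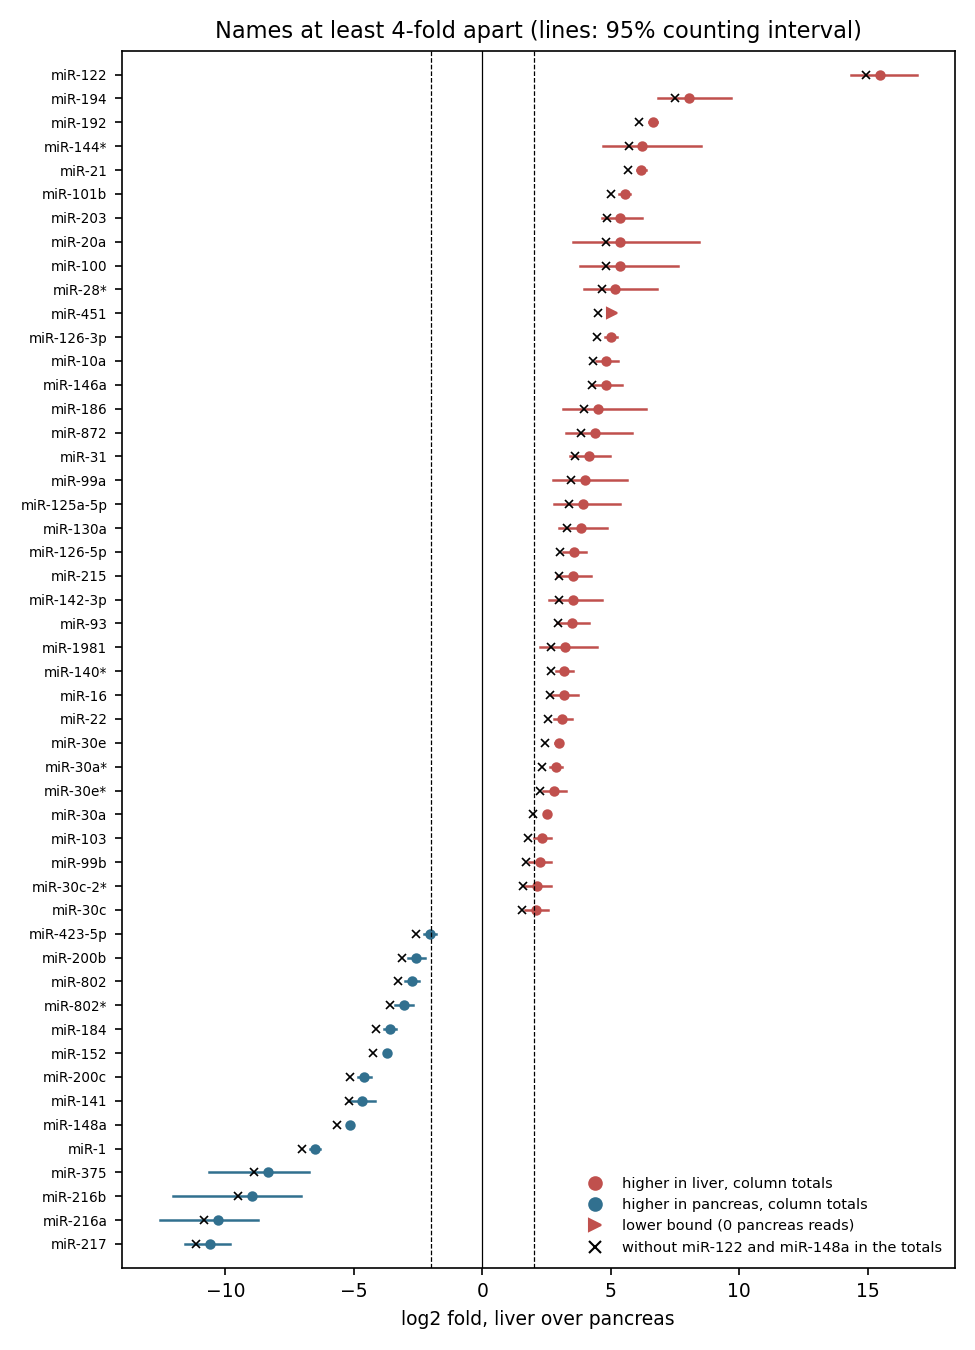
Log2 fold, liver over pancreas, of the 50 called names with 95% counting intervals (points and lines); crosses give the value without miR-122 and miR-148a in the totals, and dashed lines mark 4-fold. miR-122 has the largest liver excess and miR-217 the largest pancreas excess, and miR-451 is drawn as a triangle at its lower bound because pancreas had 0 reads.

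On the liver side, the miR-192, miR-194 and miR-215 group followed miR-122. These miRNAs are known from liver, gut and kidney epithelium, miR-192 lies within 10 kb of a miR-194 gene, and miR-215 lies within 10 kb of the other. miR-192 had 48347 RPM in liver and 484 RPM in pancreas, a 99.9-fold excess (89.2 to 112). miR-194 had 2124 RPM in liver (13479 reads) and 8.04 RPM in pancreas (5 reads), a 264-fold excess (113 to 814). miR-215, which shares the seed UGACCUA with miR-192 and differs from it at 3 of 21 positions, had 386 RPM in liver and 33.8 RPM in pancreas, an 11.4-fold excess (7.47 to 18.5). All 3 were called, and miR-192 held most of the group, which summed to 50936 RPM in liver and 526 RPM in pancreas. The call of miR-215 was not kept under every scaling. Liver ranked 8 of 14 for miR-215, below the median of the other 12 libraries at 759 RPM, and small intestine was highest at 169673 RPM. The star arm miR-194-2* had 446 reads in liver and 0 in pancreas, at least 14.6-fold higher in liver against a floor of 3 pancreas reads, and was called once miR-122 and miR-148a left the totals.

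Of the remaining abundant liver names, miR-21, a miRNA of proliferating and injured tissue that lies at the Vmp1 gene, had 27629 RPM in liver and 378 RPM in pancreas, a 73.1-fold excess (64.4 to 83.5). miR-101b, encoded in Rcl1, had 14234 RPM in liver and 307 RPM in pancreas, a 46.4-fold excess (40.2 to 53.7). Its relative miR-101a had 2937 RPM in liver and 916 RPM in pancreas, a 3.21-fold excess under the limit. Among reads of miR-101a and miR-101b with their star arms, miR-101b was 82.9% in liver and 25.03% in pancreas, so the major member of the family changed between the glands. The RefSeq strand of miR-101b starts 1 base earlier than that of miR-101a, and past that base the strands differ at 1 of 18 positions. The strands counted under these names may start at other bases, as the miRNA release is not given, so their seeds may differ from those printed. Liver was the highest of the 14 libraries for miR-122, miR-192, miR-21 and miR-101b. For miR-21 its lead was small, with uterus at 25368 RPM and spleen at 23233 RPM, while pancreas was the lowest of the 14 libraries.

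Endothelial and red blood cell markers were higher in liver as well, while the white blood cell list had 1 name of 10 RPM or more higher in each gland (miR-142-3p in liver, miR-142-5p in pancreas). miR-126-3p, encoded in the endothelial gene Egfl7, had 7824 RPM in liver and 246 RPM in pancreas, a 31.8-fold excess (27.1 to 37.5), and miR-126-5p had 796 RPM in liver and 67.5 RPM in pancreas, an 11.8-fold excess. In the red blood cell cluster of miR-144 and miR-451, miR-451 had 161 RPM in liver (1021 reads) and 0 reads in pancreas, at least 33.4-fold higher in liver, and miR-144* had 362.8 RPM in liver and 4.82 RPM in pancreas (3 reads), a 75.2-fold excess (25.7 to 365.1). The other arm, miR-144, had 19.4 RPM in liver and 17.7 RPM in pancreas, a difference within its counting interval. The red blood cell list as a whole summed to 582 RPM in liver and 32.1 RPM in pancreas and the endothelium list to 8620 RPM in liver and 313 RPM in pancreas; the part of blood or vessel content in other liver names was not tested. miR-146a, a miRNA induced by inflammatory signalling, was 28.2-fold higher in liver, with 1180 RPM in liver and 41.8 RPM in pancreas.

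**Figure D4:**
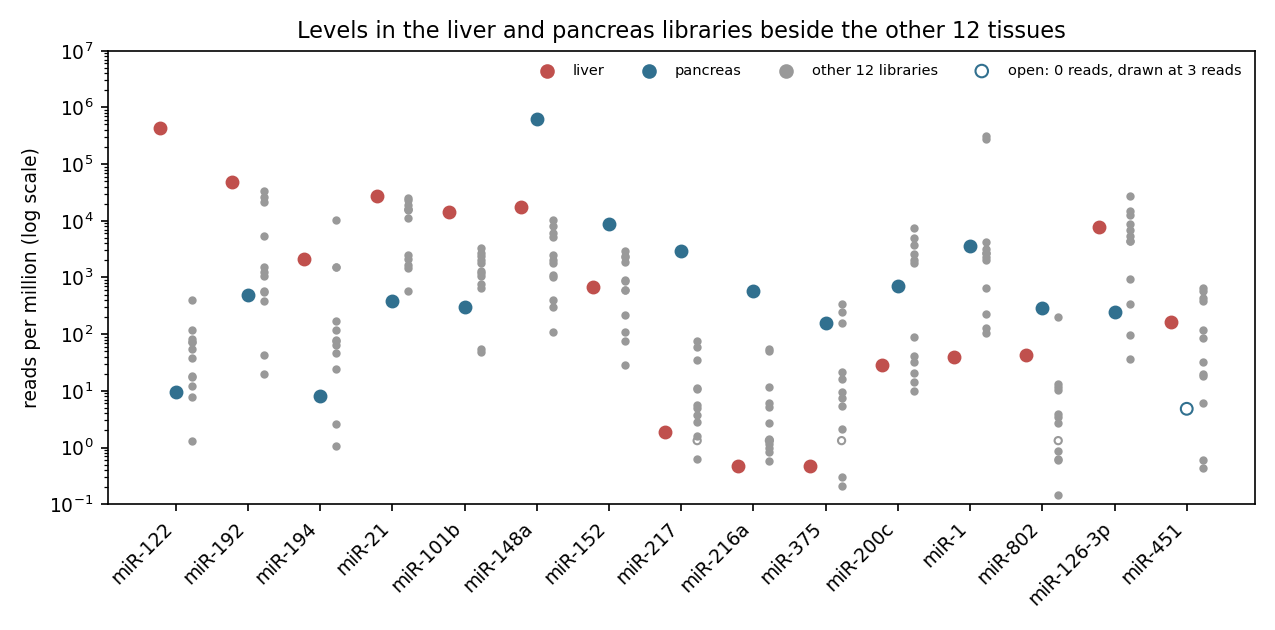
Levels (RPM, log axis) of 15 names in liver, pancreas and the other 12 libraries; open points had 0 reads and are drawn at 3 reads. miR-122, miR-192, miR-21 and miR-101b are highest in liver, while miR-148a, miR-152, miR-217, miR-216a and miR-802 are highest in pancreas.

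Levels of the called names were also set among the 12 other tissues. Of the 36 liver calls, liver was the highest of 14 libraries for 4 and above the median of the other 12 for 23, while pancreas was below that median for 35. Of the 14 pancreas calls, pancreas was the highest library for 7 and above the median of the other 12 for 11, and liver was below it for 10. Most liver calls were thus names for which the pancreas library stood low among all tissues, and only miR-122, miR-192, miR-21 and miR-101b were highest in liver. The calling rule itself selects a low level in the lower gland, so these counts are partly set in advance. The same counts over all 79 names are not given here. As miR-148a held 62.6% of pancreas reads, it also lowered the RPM of every other name in that library. miR-203, a miRNA of stratified epithelium, had 1002 RPM in liver and 24.1 RPM in pancreas (41.6-fold), and miR-10a, from the Hoxb cluster, had 2291 RPM in liver and 80.4 RPM in pancreas (28.5-fold).

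The miR-30 family, broadly expressed and known from differentiated epithelium, gave the most liver calls of any list: 6 of its 7 names at 100 RPM or more, beside 45.6% of all 79 names. That count depended on the scaling: 3 were called without miR-122 and miR-148a in the totals, fewer than the 4 names each of the miR-192 and miR-10 groups, and none was called under median-of-ratios factors from all columns. All 9 of its names at 10 RPM or more were higher in liver, with a median log2 fold of 2.33 over the 8 with reads in both libraries beside 1.46 over all such names. miR-30a had 14532 RPM in liver and 2516 RPM in pancreas (5.78-fold, 5.50 to 6.08), and miR-30e had 4896 RPM in liver and 625 RPM in pancreas (7.83-fold). The star arms miR-30a* and miR-30e* were 7.26-fold and 6.90-fold higher in liver. For miR-30a the star arm differed by more than miR-30a itself, with a fold interval of 6.13 to 8.66 that lay wholly above that of miR-30a, and the star arm was 9.91% of the pair's reads in liver and 8.05% in pancreas. The family sum was 24725 RPM in liver and 4443 RPM in pancreas, 5.57-fold higher in liver.

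Names of the miR-10, miR-99, miR-100 and miR-125 group were called higher in liver in 5 of 5 cases at 100 RPM or more, beside 45.6% of all 79 names. Of these 5, miR-99b was lost without miR-122 and miR-148a in the totals, and only miR-10a and miR-100 were kept under every scaling. miR-100 had 195.4 RPM in liver and 4.82 RPM in pancreas (3 reads, 40.5-fold, 13.8 to 197). miR-99a had 128 RPM in liver and 8.04 RPM in pancreas (15.9-fold). miR-10b, from the Hoxd cluster, was the exception of the group: it had 11.2 RPM in liver and 32.1 RPM in pancreas, 2.87-fold higher in pancreas. miR-99a lies within 10 kb of a let-7c gene and miR-100 within 10 kb of a let-7a gene, and miR-99b and miR-125a within 10 kb of let-7e. Those neighbours went apart here: let-7e had 431 RPM in liver and 1141 RPM in pancreas, while miR-99b had 348 RPM in liver and 73.9 RPM in pancreas and miR-125a-5p had 144.8 RPM in liver and 9.64 RPM in pancreas. In the cell-cycle-linked clusters of miR-17 to miR-92a and their paralogues, all 7 names at 10 RPM or more were higher in liver by column totals. That stands beside 116 of all 163 names at that level, and miR-25, miR-92a and miR-106b turned under median-of-ratios from all columns. Called were miR-20a (133 RPM in liver, 3.21 RPM in pancreas) and miR-93 (398 RPM in liver, 35.4 RPM in pancreas). The liver calls not yet named were miR-28*, miR-186, miR-872, miR-31, miR-130a, miR-1981, miR-140*, miR-16, miR-22, miR-103, miR-30c and miR-30c-2*, and ran between 4.24-fold for miR-30c and 36.3-fold for miR-28*. The most abundant of them were miR-140*, at 1148 RPM in liver and 125.4 RPM in pancreas, and miR-22, at 988 RPM in liver and 114 RPM in pancreas.

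The 29 names within 4-fold held most of the remaining reads. None of the 9 let-7 members at 100 RPM or more, a family that restrains growth genes in differentiated cells, was called; let-7d and let-7g were higher in liver by column totals but turned under 5 of the 6 other scalings, the other 7 were higher in pancreas, and the family summed to 188593 RPM in liver and 241679 RPM in pancreas. miR-378, which lies in the metabolic gene Ppargc1b, had 140674 RPM in liver and 54156 RPM in pancreas, 2.60-fold higher in liver, a direction that turned under median-of-ratios from all columns. miR-143, a smooth muscle and mesenchymal miRNA, had 61408 RPM in liver and 40149 RPM in pancreas, the lowest value of the 14 libraries; its direction turned under 4 of the 6 other scalings. miR-26a was nearly level, with 1977 RPM in liver and 1847 RPM in pancreas and a direction that turned under 5 of them, and miR-29a, which represses collagens, was 2.57-fold higher in pancreas, with 622 RPM in liver and 1596 RPM in pancreas. The names next to the limits were miR-30c at 4.24-fold just inside and miR-101a at 3.21-fold just outside for liver, and miR-423-5p at 4.12-fold inside and miR-379 at 3.95-fold outside for pancreas. miR-142-5p at 94.8 RPM in pancreas and miR-1843-5p at 88.3 RPM in liver lay just under 100 RPM.

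Among names with a sequence, no seed had calls in both directions by column totals, which only a seed shared by several names could have. Without miR-122 and miR-148a in the totals, miR-130a was called for liver. On that scale its relative miR-130b, under 100 RPM by column totals and so not counted here, was called for pancreas. The 71 names at 100 RPM or more with a sequence had 51 seeds in their RefSeq strands, of which 10 were shared by several names. Of these 10 seeds, 5 had all their names called higher in liver and 2 had some called. AAUACUG had both its names called higher in pancreas. Summed over the names at 100 RPM or more that had a sequence with the seed CAGUGCA, the level was 19024 RPM in liver and 635962 RPM in pancreas; with UGACCUA it was 48733 RPM in liver and 518 RPM in pancreas; with GUAAACA of miR-30a, miR-30c and miR-30e (miR-30d not included) it was 19722 RPM in liver and 3210 RPM in pancreas; and with AAUACUG of miR-200b and miR-200c it was 61.9 RPM in liver and 902 RPM in pancreas. These sums do not depend on how reads were divided among the names summed.

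Arms of a hairpin were compared by the share of their joint reads, which does not depend on library totals. Of 43 arm pairs whose joint reads reached 100 RPM in both libraries, 10 had 95% binomial intervals of the share that did not overlap between liver and pancreas. miR-142, a miRNA of blood cells, changed its major arm: miR-142-3p was 90.1% of the hairpin's reads in liver (88.3 to 91.8) and 13.2% in pancreas (6.23 to 23.6, on 68 reads). As a level, miR-142-3p had 165 RPM in liver and 14.5 RPM in pancreas and was called higher in liver, while miR-142-5p had 18.1 RPM in liver and 94.8 RPM in pancreas, 5.23-fold higher in pancreas. Over the other 12 libraries the share of miR-142-3p ran between 7.25% and 83.1% with a median of 69.8%, so that liver was the highest of 14 and pancreas ranked 13 of 14. Outside the 43 pairs, with under 100 joint RPM in pancreas, miR-872 also changed its major arm. Its star arm miR-872* was at 2.95% in liver and 80.0% in pancreas (61.4 to 92.3, on 30 reads). For miR-144, also under 100 joint RPM in pancreas, miR-144* was at 94.9% in liver and 21.4% in pancreas (on 14 reads). That pancreas interval, 4.66 to 50.8, includes equal shares of the arms. miR-126-3p stayed the major arm in both, at 90.8% in liver and 78.5% in pancreas. miR-148b* was 8.15% of its hairpin's reads in liver and 0.101% in pancreas, and miR-148a* was 0.178% in liver and 0.0054% in pancreas.

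**Figure D5:**
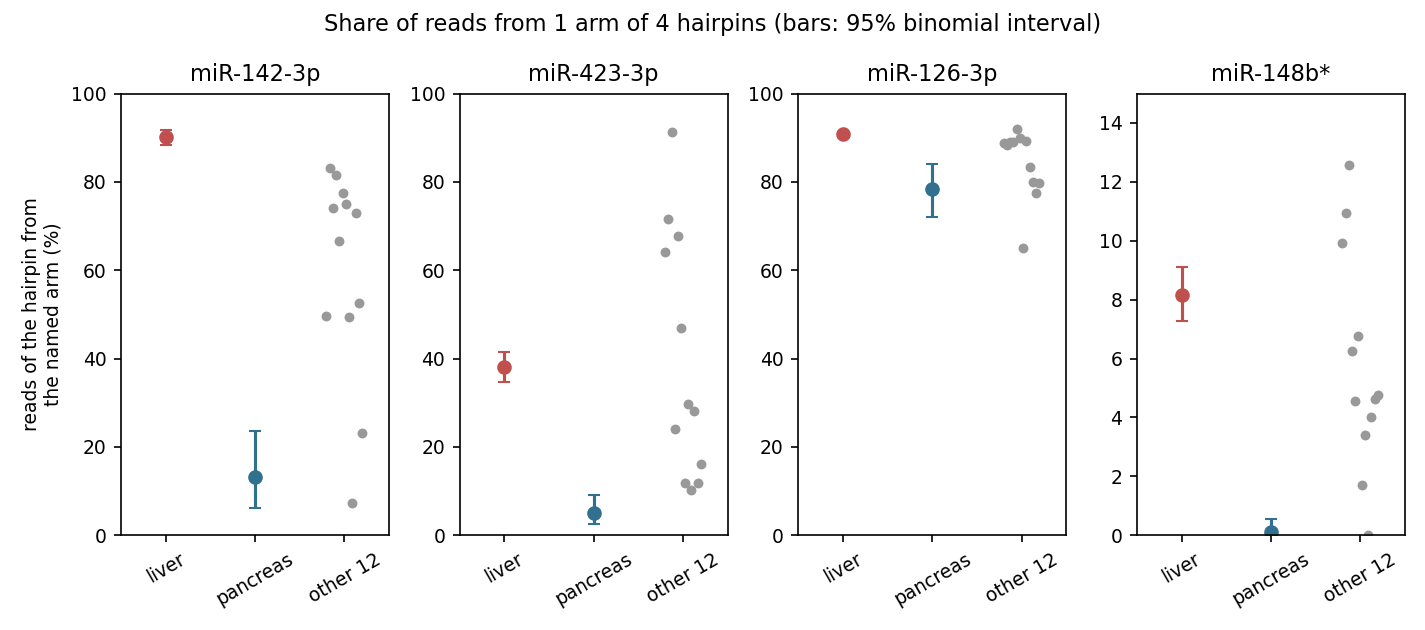
Share (percent) of a hairpin's reads that came from the named arm in liver, pancreas and the other 12 libraries for 4 hairpins, with 95% binomial intervals for liver and pancreas. miR-142-3p is the major arm in liver at 90.1% and the minor arm in pancreas at 13.2%.

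The comparison was repeated with miR-122 and miR-148a left out of both totals, the leading name of each library. The totals became 3456375 reads in liver and 232926 in pancreas, and every log2 fold moved by −0.54. On this scale 39 names were called higher in liver (39.4% of 99 names at 100 RPM) and 22 higher in pancreas (22.2%). Of the original calls, 31 of 36 in liver and 14 of 14 in pancreas remained. The 5 lost in liver were miR-30a at 3.97-fold, miR-103, miR-99b, miR-30c-2* and miR-30c. Names gained in liver included miR-140 at 30.5-fold, miR-15a at 17.9-fold and miR-17 at 9.79-fold, and names gained in pancreas included miR-130b at 44.5-fold, miR-142-5p at 7.61-fold and miR-182 at 5.30-fold. miR-130b and its relative miR-130a went opposite ways: before the change of totals miR-130a had 253 RPM in liver and 17.7 RPM in pancreas, and miR-130b had 2.68 RPM in liver and 82.0 RPM in pancreas. Over 6 other ways of scaling, 16 of the 36 liver calls and all 14 pancreas calls were kept under every one. Except for totals without miR-143, which moved log2 folds by 0.03, these scalings moved every fold towards pancreas. Pancreas calls could thus hardly be lost, and the counts do not show which calls are firmer.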

How the data were processed

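Small RNA libraries of liver and pancreas (1 each) were compared. The authors deposited unscaled read counts, whole numbers for each mature miRNA. Per the labels' protocols, RNA was extracted with Trizol, pooled over mice and prepared with standard Illumina procedures. Trimming, aligner, miRNA release, genome build and the handling of multiply matching reads: none is given in the sources used here, so near-identical names may share reads and no coordinates are printed. Each count was divided by its column total and multiplied by 1000000 (RPM). With no replicates a rule of size (at least 4-fold, at least 100 RPM in the higher library) took the place of a test; intervals are exact and cover counting error only, as reads carry no molecular identifiers. A count of 0 was set at 3 reads for bounds and figures. All called names could be named in the text, with list members, names next to the limits and hairpins whose arm intervals were apart. The 30 miRNA lists and the comparison itself were chosen with earlier results of these data known. Arms and sequences were matched by name to RefSeq (GRCm38.p6), which also gave neighbours within 10 kb. Alternatives were 6 other scalings, including edgeR TMM factors (edgeR 4.0.16, R 4.3.3), and other levels and folds. The rule was tested on simulated data. Python 3.11.15, numpy 2.4.6, scipy 1.17.1 and pandas 2.3.3 were used.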

Additional observations from a re-analysis of the deposited data

How the results depend on the processing

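By column totals 36 names were called higher in liver and 14 in pancreas. Totals without miR-122 and miR-148a gave 39 in liver and 22 in pancreas; the leading name then held 25.8% in liver and 25.3% in pancreas, and the leading 10 held 87.7% in liver and 92.5% in pancreas. Median-of-ratios factors gave 30 in liver and 22 in pancreas from the 2 columns, and 16 in liver and 30 in pancreas from all columns. TMM gave 28 in liver and 22 in pancreas, totals without the 5 most abundant names of each library 37 in each, and totals without miR-143 the original counts. A minimum of 10 RPM gave 68 in liver and 23 in pancreas, one of 1000 RPM gave 13 in liver and 4 in pancreas, and none gave 73 in liver and 40 in pancreas. A 2-fold limit gave 44 in liver and 22 in pancreas, a 10-fold limit 24 in liver and 10 in pancreas, and an interval wholly past 4-fold 33 in liver and 13 in pancreas. Leaving out star names gave 30 in liver and 13 in pancreas. Names with at least 10 reads in both libraries, a setting chosen after seeing the data, gave 23 in liver and 11 in pancreas. Relative to column totals, these scalings moved every log2 fold by −0.54, −0.70, −1.52, −0.82, −1.09 and 0.03, in the order named. No called name could change direction under the 6 scalings, as the largest of these shifts was smaller than the 4-fold limit. The summed difference of the white blood cell list turned under 3 of them and that of the smooth muscle list under 4. Pancreas depth limits the comparison: 13 liver calls rested on under 10 pancreas reads. No paired analysis was possible because each tissue has 1 library, and for the same reason no replicate could be left out.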

Other observations

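Several groups outside the calls also differed in level. The 96 names of the imprinted Dlk1-Dio3 miRNA cluster had reads for 42 in liver or pancreas and summed to 233 RPM in liver and 643 RPM in pancreas, led by miR-379 at 95.7 RPM in liver and 378 RPM in pancreas. The vascular and proliferation-linked pair of miR-221 and miR-222 with their star arms summed to 82.1 RPM in liver and 8.04 RPM in pancreas (5 reads). The miR-193 and miR-365 names summed to 43.8 RPM in liver and had 0 reads in pancreas. The neural list summed to 93.9 RPM in liver and 14.5 RPM in pancreas. miR-195, which shares its family with miR-15a and miR-16, had 64.9 RPM in liver, the lowest of the 14 libraries, and 116 RPM in pancreas, while miR-16 had 470.0 RPM in liver and 51.4 RPM in pancreas.

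Of the names read in only 1 of the glands, 214 were read in liver and 20 in pancreas, in libraries that differ 10.2-fold in depth. Of these, 12 liver names and 2 pancreas names reached 10 RPM. After miR-451 and miR-194-2*, the highest read in liver alone was miR-1944 at 43.0 RPM, and the pancreas names were miR-133a at 22.5 RPM and miR-216b* at 14.5 RPM.

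Of the 43 arm pairs with at least 100 joint RPM in both libraries, 10 had intervals apart, and the star arm, or the 3p arm where the names give 5p and 3p, took the larger share in liver in 9 of these 10. miR-872, which has fewer pancreas reads and is not among the 43, went the other way, with miR-872* at 2.95% in liver and 80.0% in pancreas. In miR-423 the 3p arm was 38.1% of reads in liver and 5.14% in pancreas, and pancreas had the lowest share of the 14 libraries.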
